A study of Danio rerio with 6 samples.

Results

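Molecular chaperones and their cofactors were compared between cells of the adult zebrafish retina sorted for a fluorescent cone reporter and the other sorted cells. Chaperones keep other proteins folded. HSP90, HSP70 and the small heat shock proteins act in the cytosol, J proteins (DnaJ family) hand clients to HSP70, and the CCT chaperonin folds actin and tubulin in a closed chamber. The endoplasmic reticulum (ER) has its own HSP70 (BiP) and HSP90, the lectin chaperones calnexin and calreticulin and the protein disulfide isomerases, and mitochondria have their own HSP70 and HSP60. Heat-shock transcription factor 1 switches on many of the cytosolic genes under stress. Photoreceptors synthesize and fold large amounts of opsin in the ER throughout life.

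Both populations came from adult fish of the line Tg(3.2TalphaCP:EGFP), in which a promoter fragment of the cone transducin α gene *gnat2* drives EGFP in cones, and no treatment was given before the fish were killed. Neural retinas were pooled, dissociated with trypsin and sorted on EGFP fluorescence. GFP-positive and GFP-negative cells were collected in 3 biological replicates each, and every sample was hybridized to 1 Affymetrix zebrafish array. The labels call both populations sorted cones, and the GFP-negative cells are taken here as those without EGFP signal. The sources used here do not give what separates the replicates (fish, pool or day), so the p-values measure the spread between these samples.

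The members are the probe sets whose gene symbol in the platform annotation begins with hsp, hsf, dnaj, cct and a digit, tcp1, fkbp, pdia, calr, canx, bag and a digit, stip1 or ppi. The rule found 115 of 15502 tested probe sets, of which 112 have 1 symbol and name 97 genes. The other 3 carry several symbols and are not assigned to a gene. By symbol, 61 probe sets were placed in the cytosol (or nucleus), 11 in mitochondria, 28 in the ER and 9 with the chaperonin. A further 3 meet the rule by spelling but do not name a chaperone (*hsf2bp*, *ppip5k1a* and *tcp11l2*). No probe set carried the symbol *stip1*.

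Values are log2 expression, given as means ± SD over the 3 arrays of a population unless listed per array, so that a difference of 1 is a 2-fold change, and differences are GFP-positive minus GFP-negative. The lowest value on the arrays is 2.17, the floor of the background step. Of the members, 6 lay there on at least 1 array, and 84 had a mean level at or above the median probe set. The cone markers placed the sort as labelled for the GFP-positive cells. All 9 measured cone markers (12 listed) were called higher there, with array means of 12.8 to 13.2 on the GFP-positive and 5.92, 4.78 and 8.05 on the GFP-negative arrays, where replicate 3 was the highest. The GFP-negative samples are therefore not called cones here. Rod transcripts were abundant in both (array means of 13.6 to 14.0 against 12.1 to 13.2). Of 3 measured rod markers (8 listed), 1 was called higher (*gnb1b*). All 3 lay above in GFP-positive cells without overlap (13.9% of all probe sets did). The GFP-positive samples therefore carried rod as well as cone transcript, and differences are not assigned to cones alone. Of 8 measured leukocyte markers (10 listed) 7 were called lower in GFP-positive cells (array means of 5.87 to 6.94 against 10.3 to 10.7). The same held for 5 of 6 measured erythrocyte markers (8 listed), with array means of 6.60 to 7.01 against 11.2 to 12.4. None of these blood cell markers lay at the lowest value on any array. In bulk samples like these, fewer cells of a type and less RNA per cell cannot be told apart.

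Of 115 probe sets, 2 were higher in GFP-positive cells and 4 were lower (limma, Benjamini-Hochberg adjusted p under 0.05 over all probe sets). The higher ones are *hspb6* and *dnajc30b*, and the lower ones *ppiaa*, *calr3a*, *pdia5* and *tcp11l2*, the last not a chaperone. These are 1.74% higher and 3.48% lower, against 2.99% and 4.69% of all tested probe sets. Together 5.22% of the members were called, against 7.68% of all, so the members were not called more often than other probe sets. Among probe sets at or above the median level, 1.19% of 84 members were higher and 4.76% were lower, against 5.2% and 7.52% of all such probe sets. On the deposited scale the median difference was 0.06 over the members and 0.01 over all probe sets. By unadjusted limma p under 0.05, 16 members counted as higher and 12 as lower (10.7% and 10.4% of all probe sets). The arrays of the populations did not overlap for 37 members, with GFP-positive cells above in 20 (17.4%, against 13.9% of all probe sets) and below in 17 (14.8%, against 13%).

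The balance between higher and lower calls depended on scaling, among the members and among all probe sets. As deposited, 33.3% of the member calls were higher, against 83.8% of 37 calls after median centring of the arrays and 3.57% of 28 calls after the arrays were set to equal hybridization controls. Of all tested probe sets, 2.99% were called higher and 4.69% lower as deposited. These shares were 39.7% and 7.11% after median centring, where 27% and 5.22% of the members were called. With the hybridization controls they were 1.26% and 21%, against 0.87% and 23.5% of the members. Median centring moved the median difference of all probe sets by 0.225 and the hybridization-control scaling by -0.737, so small differences below are relative to the deposited scale. The ER median difference, for example, was -0.09 as deposited, 0.14 when centred and -0.82 when set to the hybridization controls, against 0.01, 0.24 and -0.73 over all probe sets. Without dim probe sets it was -0.34 over 19 ER probe sets, against 0.08 over all such probe sets. It lay between -0.34 and -0.01 over the 28 ER probe sets when single arrays were left out. Without GFP-negative replicate 3, which had the most cone transcript of its population, 0 members were higher and 2 lower (1.65% and 2.57% of all probe sets). Calls were also few without other arrays. Without GFP-positive replicate 2 the member counts were 0 higher and 0 lower (0.922% and 1.55% of all probe sets). The member counts were the same without GFP-positive replicate 3 (0.664% and 1.38% of all probe sets). They were 5 and 0 without GFP-positive replicate 1 (2.08% and 2.88% of all probe sets). Leaving out GFP-negative replicate 1 gave 1 and 1 (1.66% and 4.77% of all probe sets). Leaving out GFP-negative replicate 2 gave 0 and 1 (0.813% and 2.17% of all).

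**Figure D1:**
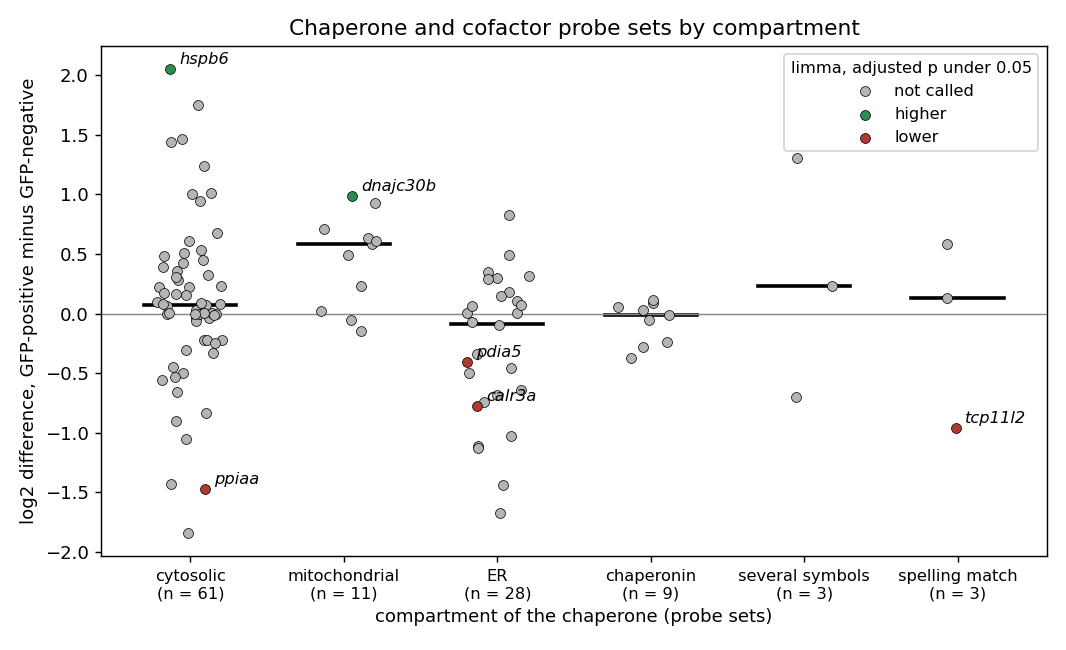
Each point is 1 chaperone or cofactor probe set, placed by its log2 difference (GFP-positive minus GFP-negative, y axis) and its compartment (x axis), with the median of each compartment as a bar and colours for the limma call. On the deposited scale the median lies at 0.58 for the mitochondrial members, 0.07 for the cytosolic, -0.09 for the ER and -0.01 for the chaperonin members, and 6 points carry a call.

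None of the 4 heat shock factor probe sets was called. For *hsf1*, the stress-activated factor, the brighter of its probe sets read 5.62, 6.17 and 5.65 in GFP-positive cells, against 5.71, 4.85 and 5.61 in GFP-negative cells. These arrays overlapped, and the difference of 0.43 had a 95% confidence interval of -0.39 to 1.24 (limma adjusted p = 0.534). The other *hsf1* probe set lay near the lowest value on all arrays. *hsf2* averaged 9.18 ± 0.78 in GFP-positive cells, against 8.58 ± 0.70 in GFP-negative cells (limma adjusted p = 0.612), and *hsf5* stayed at the lowest value throughout.

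The cytosolic HSP90 genes had differences of opposite sign, and neither passed the test as deposited. The constitutive form *hsp90ab1* read 12.37, 13.10 and 12.89 in GFP-positive cells, against 13.54, 13.67 and 13.85 in GFP-negative cells. There was no overlap, and the difference was -0.90, with a 95% confidence interval of -1.49 to -0.31 (limma adjusted p = 0.101). *hsp90ab1* passed without dim probe sets (limma adjusted p = 0.0415), with quantile normalization (0.0478), with median centring (0.0421) and with hybridization-control scaling (0.00941). It did not pass when any single array was left out (0.091 to 0.26). The related *hsp90aa1.2*, whose product belongs to the inducible HSP90α type in mammals, read 12.23, 12.95 and 13.24 in GFP-positive cells, against 11.00, 11.19 and 12.52 in GFP-negative cells. Its difference was 1.24, with a 95% confidence interval of -0.17 to 2.65 (limma adjusted p = 0.291), and GFP-negative replicate 3 lay within the GFP-positive range. *hsp90aa1.2* passed in 0 of 12 alternatives (limma adjusted p from 0.0553 to 0.566). A dimmer probe set of the gene varied more, at 7.62, 10.34 and 10.71 in GFP-positive cells, against 7.32, 8.30 and 10.23 in GFP-negative cells. Taking the log2 ratio of *hsp90aa1.2* to *hsp90ab1* within each array gave -0.14, -0.15 and 0.34 in GFP-positive samples, against -2.54, -2.49 and -1.33 in GFP-negative samples. The arrays of the populations did not overlap in this ratio, which differed by 2.14 between them (exact permutation test, two-sided, p = 0.1, the smallest that 3 arrays against 3 allow). Adjusted over the 11 paralog pairs examined, this p was 0.157. The *hsp90aa1.1* probe set was dim, at 2.95 ± 0.07 in GFP-positive cells, against 2.79 ± 0.12 in GFP-negative cells (limma adjusted p = 0.328). How far probes of such similar copies bind each other's transcripts was not tested.

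Of 6 cytosolic HSP70 probe sets none was called, and by unadjusted limma p under 0.05 the counts were 0 higher and 2 lower (10.7% and 10.4% of all probe sets). The constitutive HSP70 gene *hspa8* read 12.10, 11.86 and 12.60 in GFP-positive cells, against 12.81, 13.29 and 12.94 in GFP-negative cells. The populations did not overlap, with a difference of -0.83 (standard error 0.25, limma adjusted p = 0.149). The heat-inducible *hsp70.3* varied widely, at 12.20, 10.68 and 11.02 in GFP-positive cells, against 13.03, 10.60 and 11.76 in GFP-negative cells. Its difference of -0.50 had a 95% confidence interval of -2.60 to 1.60 (limma adjusted p = 0.778), so a change of over 2-fold in either direction lay within the interval. A probe set that carries the symbols *hsp70.1*, *hsp70l* and *hsp70.3* had a difference of -0.70 (limma adjusted p = 0.612). How far the *hsp70.3* probe set binds transcripts of such similar copies was not tested. *hspa8b* had a difference of 0.23 (limma adjusted p = 0.752), and *hspa1b* lay at the lowest value on 5 of 6 arrays. A further 3 probe sets measured the HSP110 type, which exchanges the nucleotide of HSP70, and none was called. The closest to the threshold was *hspa4l*, at 11.41 ± 0.21 in GFP-positive cells, against 10.92 ± 0.04 in GFP-negative cells (limma adjusted p = 0.0898).

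The HSP40 gene *dnajb1b*, which encodes the J protein induced with HSP70 under stress, had the most negative difference of all members. It read 9.24, 6.79 and 8.12 in GFP-positive cells, against 11.14, 8.69 and 9.84 in GFP-negative cells. In both populations replicate 1 was the highest and replicate 2 the lowest, as for *hsp70.3*. The difference was -1.84, with a 95% confidence interval of -4.34 to 0.66 (limma adjusted p = 0.366). Among the scalings it passed only when the arrays were set to the hybridization controls (difference -2.58, limma adjusted p = 0.011). Its pooled standard deviation within a population, 1.23, lay at percentile 99.1 of the 7751 probe sets at or above the median level, and that of *hsp70.3*, 1.03, at percentile 97.9. Of 8 measured genes of the cell dissociation response (immediate early and stress genes such as *fosab* and *atf3*) 3 were called lower in GFP-positive cells (4.69% of all probe sets were) and 0 higher, and their array means were 8.44, 9.23 and 9.20 in GFP-positive cells, against 10.6, 11.4 and 11.5 in GFP-negative cells. Their part in the *dnajb1b* and *hsp70.3* values was not tested.

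Of the 17 probe sets of cytosolic J proteins none was called, and by unadjusted limma p under 0.05 the counts were 4 higher and 1 lower (10.7% and 10.4% of all probe sets). *dnajc5ga* belongs to the cysteine string protein family, best known from synaptic vesicles, and read 10.33, 11.08 and 11.06 in GFP-positive cells, against 9.16, 9.33 and 9.67 in GFP-negative cells. No array overlapped, with a difference of 1.44 (standard error 0.27, limma adjusted p = 0.0533). It passed in 4 of 12 alternatives, 1 of them with a single array left out. That was without GFP-positive replicate 1 (limma adjusted p = 0.0384), and it did not pass without any of the other 5 arrays (0.103 to 0.176). *dnajc12*, which in humans assists the aromatic amino acid hydroxylases, had a difference of 1.47 at a low level (limma adjusted p = 0.153). The type A genes *dnaja2a* and *dnaja2b* lay on opposite sides of 0 as deposited, at -0.66 and 0.68 (limma adjusted p = 0.125 and 0.178). The ratio of *dnaja2a* to *dnaja2b* differed by -1.34 between the populations, without overlap (exact permutation test, two-sided, p = 0.1, and 0.157 adjusted over 11 pairs). A dimmer *dnaja2b* probe set, not used in the ratio, had a difference of 0.28 with overlap (limma adjusted p = 0.583).

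Of all members, *hspb6* and *hspb1*, which encode small heat shock proteins, had the most positive differences as deposited, and both stayed positive in every scaling tried. These proteins hold unfolding clients without ATP, and HSP25 of mouse is the product of the *hspb1* ortholog. *hspb6* read 8.22, 9.32 and 9.10 in GFP-positive cells, against 6.65, 6.85 and 6.99 in GFP-negative cells. All GFP-positive arrays lay above all GFP-negative ones, and *hspb6* was 4.15-fold higher (a log2 difference of 2.05 with a standard error of 0.33, limma adjusted p = 0.0373). *hspb1* read 10.12, 10.28 and 9.93 in GFP-positive cells, against 8.97, 7.67 and 8.43 in GFP-negative cells. It also did not overlap, but with a difference of 1.75 (standard error 0.37, 95% confidence interval 0.78 to 2.72) it missed the threshold as deposited (limma adjusted p = 0.069). *hspb1* passed without dim probe sets (limma adjusted p = 0.011) and with median centring (0.027), and not when any single array was left out (0.0518 to 0.212). *hspb8* lay at or near the lowest value on all arrays. The *hspb6* call held without GFP-positive replicate 1 (limma adjusted p = 0.0179) and was lost when any other single array was left out, with adjusted p-values up to 0.136 and differences between 1.83 and 2.38. Neither gene changed direction in any alternative. Of the lens, whose cells are rich in relatives of these proteins, 3 of 6 listed markers were measured and 0 called. Among them *cryaa*, an α-crystallin gene, was close to the lowest value. The α-crystallin gene *cryaba* read 5.33, 7.05 and 4.65 in GFP-positive cells, against 3.43, 3.04 and 5.24 in GFP-negative cells. Its arrays overlapped, with a difference of 1.78 (limma adjusted p = 0.375). Of 7 Müller glia markers 3 were called higher in GFP-positive cells (*rlbp1a* 2.48-fold, *vim* 2.17-fold and *gfap* 2.01-fold) and 1 lower (*slc1a3a*), with array means of 8.95 to 9.38 in GFP-positive cells, against 9.08 to 9.52 in GFP-negative cells. None of the 7 lay at the lowest value, and the part of the lens and glia markers in the *hspb6* and *hspb1* values was not tested.

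Among the peptidylprolyl isomerases, which turn proline bonds during folding, the cyclophilin A gene *ppiaa* was lower in GFP-positive cells. Its called probe set read 8.37, 7.94 and 8.23 in GFP-positive cells, against 9.77, 9.93 and 9.27 in GFP-negative cells. There was no overlap, and the level was 2.78-fold lower (log2 difference -1.48, standard error 0.22, limma adjusted p = 0.032). The brighter probe set of the gene had a like difference of -1.43 with a wider spread (11.33 ± 0.25 in GFP-positive cells, against 12.76 ± 0.63 in GFP-negative cells, limma adjusted p = 0.113). The *ppiaa* call held without GFP-negative replicate 3 (limma adjusted p = 0.0361) and was lost when any other single array was left out, with adjusted p-values up to 0.119. The paralog *ppiab* had a difference of -0.33 (limma adjusted p = 0.416). The leukocyte and erythrocyte markers given above were also lower in GFP-positive cells, and their part in the *ppiaa* result was not tested.

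*fkbp1b*, whose mammalian protein binds the ryanodine receptor calcium channel, read 10.60, 11.01 and 10.86 in GFP-positive cells, against 9.52, 10.12 and 9.78 in GFP-negative cells. Again there was no overlap, and the difference of 1.01 just missed the threshold as deposited (standard error 0.20, limma adjusted p = 0.0597). *fkbp1b* passed in 4 of 12 alternatives, none of them with a single array left out. *fkbp5*, an HSP90 cochaperone of steroid receptors, spread over 11.85, 10.70 and 9.83 in GFP-positive cells, against 11.88, 11.23 and 12.43 in GFP-negative cells. These arrays overlapped, with a difference of -1.05 (limma adjusted p = 0.452). Of 23 probe sets of FKBP and cyclophilin genes in all compartments, 0 were higher (2.99% of all probe sets were) and 1 lower (4.35%, against 4.69% of all).

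**Figure D2:**
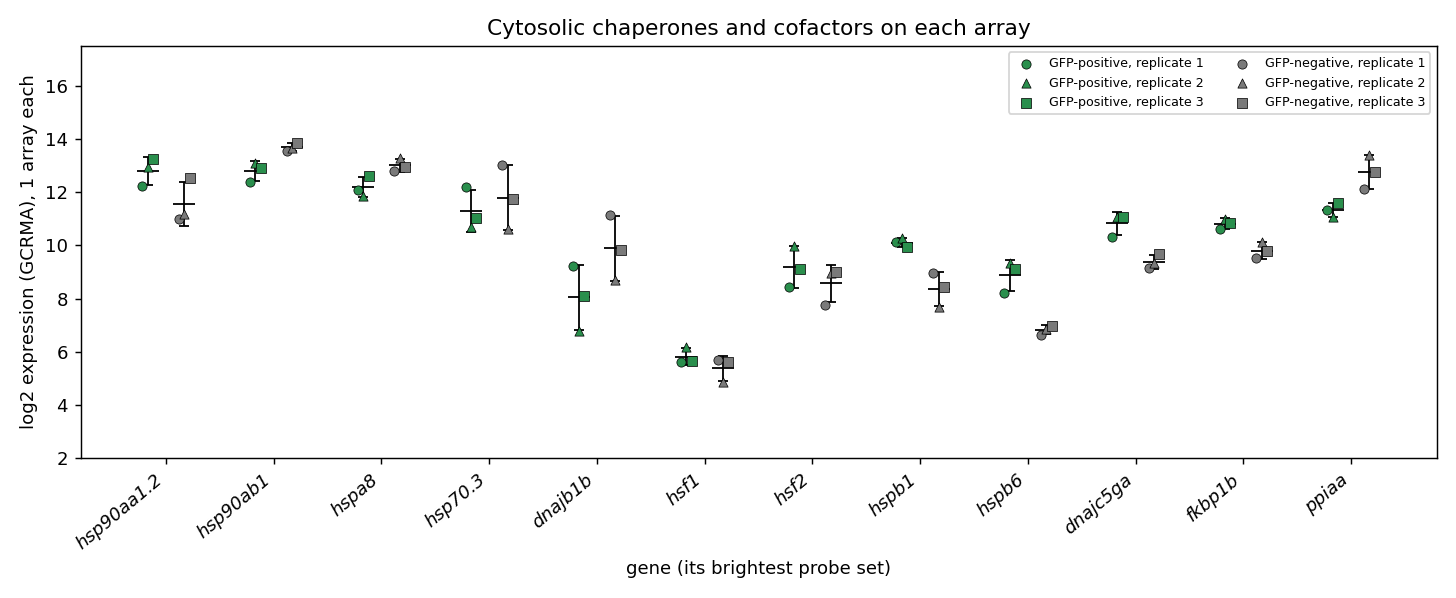
Log2 expression (y axis) of 12 cytosolic chaperone and cofactor genes (x axis), with GFP-positive arrays in green at the left and GFP-negative arrays in grey at the right of each gene, 1 symbol shape per replicate number, and the mean with its SD in black. The GFP-positive arrays of *hspb6* lie between 8.22 and 9.32, above its GFP-negative arrays (6.65 to 6.99), whereas *hsp70.3* and *hsf1* overlap.

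Most mitochondrial members had a positive difference, 9 of 11 on the deposited scale, against 8200 of 15502 over all probe sets. Their median difference was 0.58, against 0.01 over all probe sets, and -0.15 under the hybridization-control scaling, against -0.73 over all. It was 0.28 without GFP-negative replicate 1 and between 0.41 and 0.64 without any other single array. Of the 11, 1 was higher (9.09%, against 2.99% of all probe sets) and none was lower (4.69% of all were). By unadjusted limma p under 0.05 the counts were 5 and 0, against 10.7% and 10.4% of all probe sets. The called gene was *dnajc30b*, whose human counterpart takes part in the turnover of respiratory complex I. It read 4.27, 4.12 and 4.50 in GFP-positive cells, against 3.16, 3.38 and 3.38 in GFP-negative cells. The populations did not overlap, and the level was 1.98-fold higher (a log2 difference of 0.99 with a standard error of 0.12, limma adjusted p = 0.0209). These are low levels, where the size of a difference depends on the background step. The call was lost whichever single array was left out (limma adjusted p between 0.0539 and 0.074). With hybridization-control scaling the difference was 0.25 (limma adjusted p = 0.482).

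Of the other mitochondrial J protein genes, *dnaja3a* and *dnaja3b* had differences of 0.71 and 0.64 and *dnajc19* of 0.93, but *dnajc11a* and *dnajc4* of 0.03 and -0.05. *dnaja3a*, a partner of mitochondrial HSP70, averaged 8.07 ± 0.20 in GFP-positive cells, against 7.37 ± 0.33 in GFP-negative cells (limma adjusted p = 0.149), and *dnajc19*, of the import motor, 4.22 ± 0.42 in GFP-positive cells, against 3.29 ± 0.16 in GFP-negative cells (limma adjusted p = 0.114). The cyclophilin D gene *ppifa* had a difference of 0.61 (limma adjusted p = 0.163). Of the 11 mitochondrial probe sets 5 lay above without overlap (45.5%, against 13.9% of all probe sets) and 0 below (13% of all did). The 5 were those of *dnaja3a*, *dnaja3b*, *dnajc19*, *dnajc30b* and *ppifa*. None of the mitochondrial chaperones themselves was called. *hspa9*, the mitochondrial HSP70, read 10.26, 10.42 and 11.22 in GFP-positive cells, against 9.71, 10.45 and 10.26 in GFP-negative cells, with overlap and a difference of 0.49 (limma adjusted p = 0.526). *hspd1*, which encodes HSP60, had a difference of -0.15 with a 95% confidence interval of -0.34 to 0.04 (limma adjusted p = 0.347). Its HSP10 partner *hspe1* had 0.23, with an interval of -0.23 to 0.70.

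In the ER, 2 of 28 probe sets were lower in GFP-positive cells (7.14%, against 4.69% of all probe sets) and none was higher (2.99% of all were). By unadjusted limma p under 0.05, 4 were lower and 1 higher (10.4% and 10.7% of all probe sets). Both called genes had small differences. *calr3a*, a calreticulin family gene, read 9.51, 9.72 and 9.96 in GFP-positive cells, against 10.42, 10.53 and 10.57 in GFP-negative cells. Its arrays did not overlap, and the level was 1.71-fold lower (log2 difference -0.78, standard error 0.13, limma adjusted p = 0.0403). *pdia5*, a disulfide isomerase gene, read 6.82, 6.83 and 6.68 in GFP-positive cells, against 7.24, 7.25 and 7.07 in GFP-negative cells. It was 1.33-fold lower (log2 difference -0.41, standard error 0.07, limma adjusted p = 0.0457), and 2 dimmer probe sets of the gene had differences of 0.18 and 0.29 that were not called. Each of these calls was lost whichever single array was left out, with limma adjusted p-values of 0.0517 to 0.143 for *calr3a* and 0.0512 to 0.146 for *pdia5*. The *pdia5* difference was -0.18 with median centring (limma adjusted p = 0.157) and -0.34 with quantile normalization (0.155). Its call was also lost without dim probe sets (limma adjusted p = 0.17), and it held in 3 of 12 alternatives.

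The remaining disulfide isomerases, which form and shuffle disulfide bonds in new secretory proteins, had larger differences that missed the threshold. *pdia6* read 4.43, 4.21 and 4.89 in GFP-positive cells, against 5.37, 6.58 and 5.90 in GFP-negative cells, a difference of -1.44 (standard error 0.38, limma adjusted p = 0.118). *pdia3* had -1.67 (limma adjusted p = 0.252) and *pdia4* -1.03 (limma adjusted p = 0.163). All 3 had every GFP-positive array below every GFP-negative one. *pdia7* had a positive difference, at 8.22 ± 0.21 in GFP-positive cells, against 7.40 ± 0.24 in GFP-negative cells, again without overlap (difference 0.83, standard error 0.18, limma adjusted p = 0.0728). Of the 9 disulfide isomerase probe sets 4 lay below without overlap (13% of all probe sets did) and 2, both of *pdia7*, above (13.9% of all did).

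The central ER chaperones were not called. *hspa5*, which encodes BiP, read 8.04, 8.96 and 9.47 in GFP-positive cells, against 9.15, 10.37 and 10.28 in GFP-negative cells. The arrays overlapped, and the difference of -1.11 had a 95% confidence interval of -2.54 to 0.32 (limma adjusted p = 0.343). The ER form of HSP90, *hsp90b1*, had a difference of -0.34 (limma adjusted p = 0.766). Calnexin was the most tightly bounded of the ER lectins. *canx* averaged 10.81 ± 0.11 in GFP-positive cells, against 10.75 ± 0.15 in GFP-negative cells, with a difference of 0.06 and a 95% confidence interval of -0.21 to 0.33. The brighter *calr* probe set had 0.14, with an interval of -0.38 to 0.67. The part of the blood cell markers in the ER values was not tested.

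**Figure D3:**
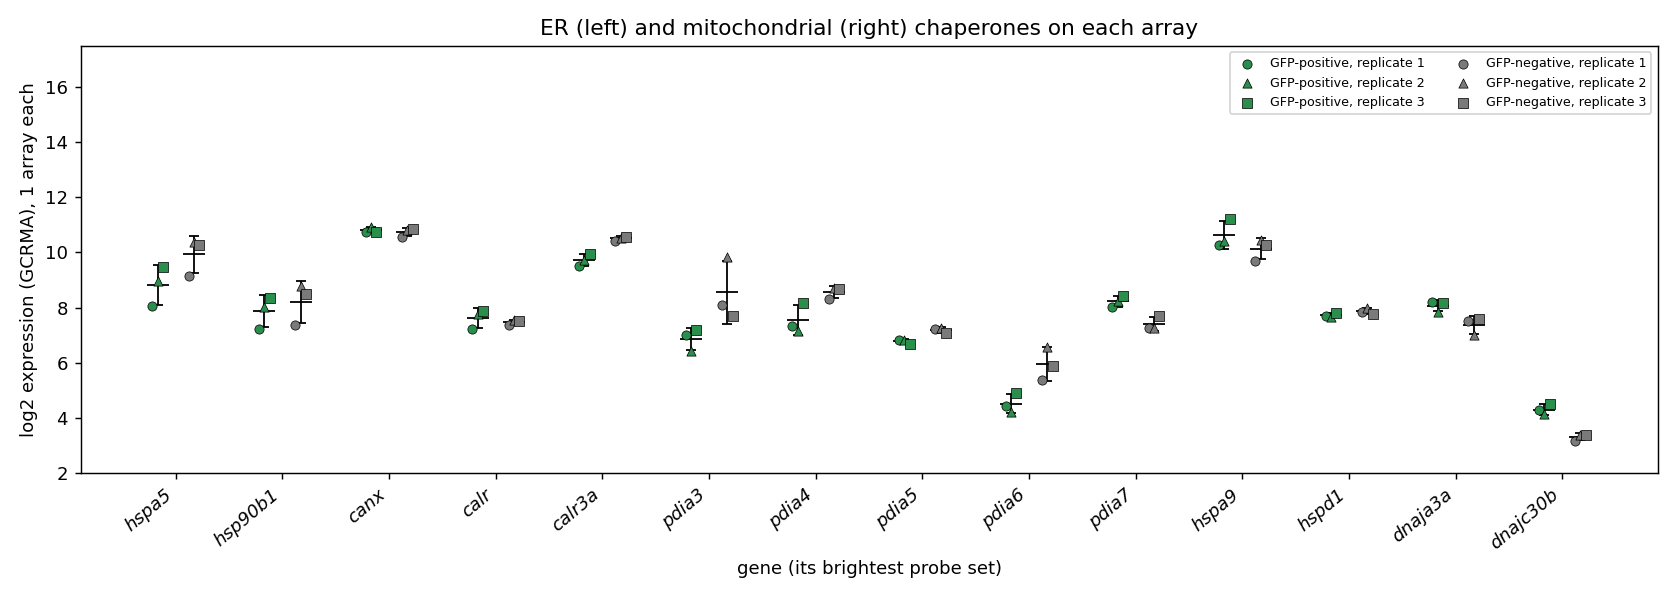
Log2 expression (y axis) of 10 ER genes (*hspa5* to *pdia7*) and 4 mitochondrial genes (*hspa9* to *dnajc30b*) on each array, with GFP-positive arrays in green at the left and GFP-negative arrays in grey at the right of each gene, 1 symbol shape per replicate number, and the mean with its SD in black. The arrays of *calr3a* and *pdia5* are close together within a population and apart between populations, whereas *canx* lies near 10.8 in both.

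The chaperonin subunits had the smallest differences of the compartments on the deposited scale. Of 8 CCT subunit genes (9 probe sets), 0 were called in either direction by limma, and 0 had an unadjusted p under 0.05. No subunit had arrays that separated the populations. The differences ran from -0.38 (*cct7*) to 0.11 (*cct6a*), with a median of -0.01 over the probe sets. *tcp1*, which encodes the α subunit, read 8.63, 9.11 and 9.70 in GFP-positive cells, against 8.64, 10.29 and 9.36 in GFP-negative cells, a difference of -0.28 with a 95% confidence interval of -1.71 to 1.14 (limma adjusted p = 0.835). The bounds were narrow for *cct4*, at -0.23 to 0.29, and *cct2*, at -0.26 to 0.44. For 5 of the 8 bright probe sets the interval lay within a 2-fold change in either direction. The same held for 17 of 45 cytosolic, 3 of 8 mitochondrial and 6 of 19 ER probe sets at or above the median level.

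Over all 11 paralog pairs examined, the 2 genes of a pair lay on opposite sides of 0 on the deposited scale in 4 (*dnaja2a* and *dnaja2b*, *dnajc3a* and *dnajc3b*, *hspa8* and *hspa8b*, *hsp90aa1.2* and *hsp90ab1*). The ratio within arrays reached the smallest possible exact permutation p of 0.1 in 7 pairs, each 0.157 after adjustment. In 1 of these, *dnajc5ga* and *dnajc5gb*, the second gene was constant on all arrays, so its ratio restates the values of *dnajc5ga*. With so few arrays, a p of 0.1 means only that the ratios of the populations did not overlap. How often the ratios of other gene pairs separate the populations was not tested. Whether 7 of 11 is more than other gene pairs would give is therefore not known. The pairs *calr3a* and *calr3b* (-0.78 and -0.68) and *dnaja3a* and *dnaja3b* (0.71 and 0.64) had like differences, with a difference of the ratio of -0.10 and 0.07 between populations.

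For other genes of protein folding, shares were again set beside those of all probe sets. Of 113 listed genes outside the member rule 72 were measured, 2 of them higher (2.78%, against 2.99% of all probe sets) and 0 lower (against 4.69%) in GFP-positive cells. By unadjusted limma p under 0.05 the counts were 7 higher and 4 lower (10.7% and 10.4% of all probe sets), and the median difference was 0.08. The called genes were *os9*, an ER lectin that sends misfolded glycoproteins to degradation (1.36-fold higher, limma adjusted p = 0.0197, but with a difference of -0.30 under the hybridization-control scaling), and the clusterin-like *clul1*. Levels of *clul1* averaged 11.05 in GFP-positive cells, against 3.72 in GFP-negative cells (limma adjusted p = 0.0144). *os9* averaged 9.65 ± 0.10 in GFP-positive cells, against 9.21 ± 0.003 in GFP-negative cells, so the spread between the GFP-negative arrays was very small. The *os9* call was lost without dim probe sets (limma adjusted p = 0.136) and held only without GFP-positive replicate 1 among the single arrays left out (0.0142 to 0.092). The *clul1* call held without GFP-negative replicate 1 or 3 and was lost without any of the other 4 arrays (limma adjusted p from 0.00945 to 0.0743 over all 6), with differences from 6.94 to 8.13. Of 17 partners of HSP90 and HSP70 and of 9 mitochondrial quality control genes 0 were called. Among 25 genes of ER quality control and the unfolded protein response, *xbp1*, a transcription factor of that response and of antibody-secreting cells, read 10.30, 11.19 and 11.65 in GFP-positive cells, against 12.29, 13.29 and 13.32 in GFP-negative cells. It did not overlap but missed the threshold as deposited (difference -1.92, standard error 0.49, limma adjusted p = 0.111). It passed without dim probe sets (limma adjusted p = 0.0189), when the arrays were median-centred (0.034) or set to the hybridization controls (0.00334), and not when any single array was left out (0.107 to 0.298). The ER HSP110 gene *hyou1* also did not overlap, with -0.88 (limma adjusted p = 0.087, with 0.0391 without dim probe sets and 0.00304 when set to the hybridization controls), and *atf4a* had 1.12 (limma adjusted p = 0.313).

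**Figure D4:**
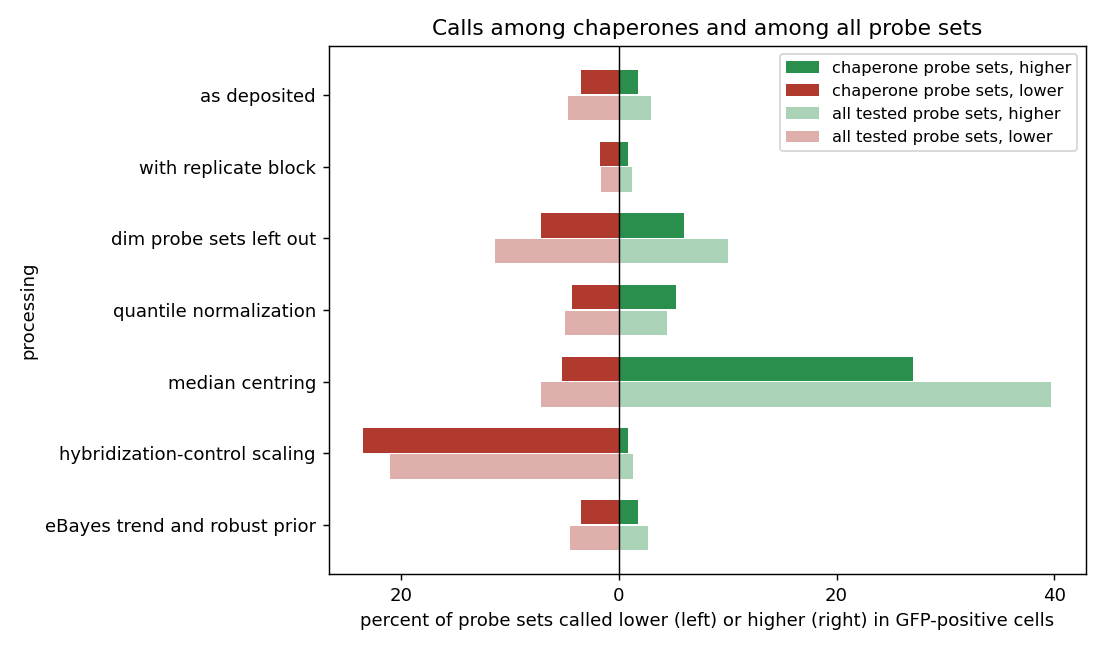
Percent of probe sets called lower (left of 0) or higher (right of 0) in GFP-positive cells (x axis) under 7 ways of processing (y axis), for the chaperone probe sets in full colour and all tested probe sets in pale colour. The chaperone probe sets here are all members by the rule, with the spelling matches. As deposited, 1.74% of them were called higher and 3.48% lower, with *tcp11l2*, not a chaperone, among the lower. The share of members called higher was 27% with median centring, where 39.7% of all probe sets were.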

How the data were processed

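For each of 6 arrays the authors deposited log2 values of every probe set, 3 GFP-positive and 3 GFP-negative. The submitters' notes name GCRMA (background by probe sequence, normalization between arrays, probe set summary), with version and settings not given in the sources used here. Values were used as deposited, and gene names came from the platform annotation. Leaving out 115 Affymetrix controls, 15502 of 15617 probe sets were tested. Populations were compared with limma 3.58.1 in R 4.3.3 (lmFit, eBayes, two-sided, prior degrees of freedom 0.519), with Benjamini-Hochberg adjustment over all 15502 probe sets, and paralog ratios with an exact permutation test (scipy 1.17.1). Unless stated, a gene is represented by its brightest probe set. Arrays have no read depth, and 3 per population limit the precision. The limma step was run on simulated data with known changes as a check of the calculation. The simulation shuffled spreads among probe sets, so it does not show how many changes the test misses here.

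Members, compartments and lists were chosen with earlier results of these data known. The genes named were those of proteins the article discusses, up to 4 called members per compartment and direction, central members (*hspa5*, *hspa9*, *hspd1*, *tcp1*, calreticulin and calnexin genes) and called genes of the folding list. Others were named after their values were seen. Alternatives were a block for the replicate number, quantile normalization, leaving dim probe sets out, median centring, scaling to hybridization controls, an intensity-trended robust prior, a 2-fold minimum, 1 probe set per gene and leaving out each array. Figures were drawn with matplotlib 3.10.9. Sequences and coordinates were not used here.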

Additional observations from a re-analysis of the deposited data

How the results depend on the processing

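With the replicate number as a block, 1 member was higher and 2 were lower (0 mitochondrial higher, 1 ER lower). Of all probe sets, 1.25% were then higher and 1.65% lower. *dnajb1b* (limma adjusted p = 0.0314) and *fkbp1b* (0.0458) passed, and *pdia5* alone of the called members kept its call. Among other folding genes *xbp1* (0.0465), *atf4a* (0.0465) and *hyou1* (0.0298) passed with the block, and *os9* (0.0776) and *clul1* (0.0637) did not. Deviations of same-numbered arrays correlated at 0.555, 0.0589 and 0.266, and those of differently numbered arrays at -0.443 to 0.357. The sources used here do not say whether a shared number marks a shared pool, so the numbers were not taken as pairs. Without dim probe sets 5 members were higher (4 cytosolic, 0 mitochondrial, 1 ER) and 6 lower (3 cytosolic, 2 ER). These were 5.95% and 7.14% of 84 members, against 10% and 11.4% of all such probe sets. *dnajc30b* was among the dim probe sets and was not tested there. With quantile normalization 6 were higher (4 cytosolic, 1 ER) and 5 lower (3 cytosolic, 1 ER). These were 5.22% and 4.35% of the members, against 4.38% and 4.92% of all probe sets. With median centring 31 were higher (23 cytosolic, 5 mitochondrial, 3 ER) and 6 lower (3 cytosolic, 2 ER). Of the 31, 2 were constant on all arrays as deposited. Under the hybridization-control scaling 1 was higher (0 mitochondrial) and 27 lower (14 cytosolic, 1 mitochondrial, 10 ER). With a 2-fold minimum 1 was higher and 1 lower (0 mitochondrial higher, 0 ER lower), and with 1 probe set per gene 0 cytosolic were lower. Without single arrays, 0 to 5 members were higher (cytosolic 0 to 5, mitochondrial 0 to 0) and 0 to 2 lower (cytosolic 0 to 1, ER 0 to 1). Of all probe sets, 0.664% to 2.08% were then higher and 1.38% to 4.77% lower. No chaperonin probe set was called in any alternative. Over the named genes and alternatives, a call was gained 52 times and lost 53 times with the direction kept. The *os9* call was also lost under the hybridization-control scaling (limma adjusted p = 0.396), where its direction turned. Of 45 named gene results 29 kept their direction in all alternatives. Under the hybridization-control scaling the difference turned for *hspa8b* (-0.51), *hspa1b* (-0.71), *hsf1* (-0.31), *hsp90aa1.1* (-0.58), *hspa9* (-0.24), *calr* (-0.59), *canx* (-0.68), *os9* (-0.30), *dnaja2b* (-0.06), *hspa4l* (-0.25), *hsf2* (-0.13), *dnaja3a* (-0.03) and *ppifa* (-0.13). It turned for *hspd1* with median centring (0.08) and for *canx* with quantile normalization (-0.02). Without single arrays *hsp70.3* ranged from -1.10 to 0.12, *hspa8b* from -0.07 to 0.41, *tcp1* from -0.68 to 0.15 and *canx* from -0.03 to 0.12. The cause was not tested. Values near 2.17 limit what dim members can show.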
